A study of Mus musculus with 36 samples.

Results

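The proteins that carry folate across cell membranes were followed in the livers of 5 mouse lines with neural tube defects and of their wild type controls. They comprised 5 genes: the folate receptors Folr1 and Folr2, the plasma membrane carriers Slc19a1 and Slc46a1, and the mitochondrial carrier Slc25a32. Every array probe set whose gene symbol, or a current synonym of it, named one of these genes was taken, which gave 10 probe sets of 45037 and 5 genes of 18193. Folr1 and Folr2 had 1 probe set each, Slc46a1 had 2, and Slc19a1 and Slc25a32 had 3 each.

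Liver RNA of 36 female mice was hybridised to Affymetrix arrays, with 1 mouse on each array and 4 mice in each of 9 groups. All mice were 6 to 8 weeks old and had been fasted for 4 to 5 h. The mutant groups were heterozygotes of Pax3Sp2H (Pax3) and Lrp6Cd (Cd-Het), which the labels class as responsive to dietary folic acid, heterozygotes of Apobtm1Unc (Apob) and Vangl2Lp (Lp-Het), classed as resistant, and ct mice (Ct), also classed as resistant. Ct mice were taken from a closed, random-bred colony in which every animal counts as ct/ct, so they are a stock of their own and not littermates of their controls. The controls were C57BL/6J mice (B6) for both Pax3 and Apob, wild type mice of the Lrp6Cd line (Cd-WT) for Cd-Het, CBA/CaJ mice (CBA) for Ct and wild type mice of the Vangl2Lp line (Lp-WT) for Lp-Het. All alleles were present throughout the body, and the livers were of adult mice, not of embryos.

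Folate is a charged vitamin that does not pass membranes freely. Cells take it up through the reduced folate carrier Slc19a1, an anion exchanger, through the proton-coupled folate transporter Slc46a1, which works best at acid pH and absorbs folate in the gut, and through receptors that are anchored in the membrane by a lipid and bind folate tightly. Inside the cell, Slc25a32 brings folate into mitochondria, and the liver is the main store of folate in the body. Folr2 is known in the liver as a gene of resident macrophages, the Kupffer cells, and Folr1 as a gene of epithelia such as kidney tubule and choroid plexus.

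Values are the authors' MAS5 signals, a linear scale on which each array had been set to the same trimmed mean. A signal was called near background where its group mean lay below the 90th percentile of 80 probe sets of olfactory and vomeronasal receptors, genes of the nose that served as a gauge of empty signal, which was 89.0 to 129 over the 9 groups. Differences between groups are log2 differences of signal plus an offset, with standard errors from a limma fit over 27022 probe sets past a filter on low signal. Calls were made at an adjusted p under 0.05, by the Benjamini-Hochberg method over the probe sets of a comparison. Of the 10 probe sets, 8 passed the filter. Levels are not compared between genes, since each probe set has its own response.

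A pair of arrays stood apart in the 3′/5′ ratio of control probes, CBA replicate 4 far more than Ct replicate 3. The GAPDH control probes had a 3′/5′ signal ratio of 52.5 for CBA replicate 4 and of 1.72 for Ct replicate 3, against 0.729 to 0.956 on the other 34 arrays. The actin ratios were 31.0 and 3.71, against 1.63 to 2.93. The main results for Ct or CBA are therefore given with and without these arrays. They are named the arrays of poor RNA quality for short. The rise of Ct replicate 3 was small and does not by itself show degraded RNA. Ct replicate 3 also held a summed signal of 12 Kupffer cell markers of 110423, against 18183 to 25781 on the other Ct arrays.

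**Figure D1:**
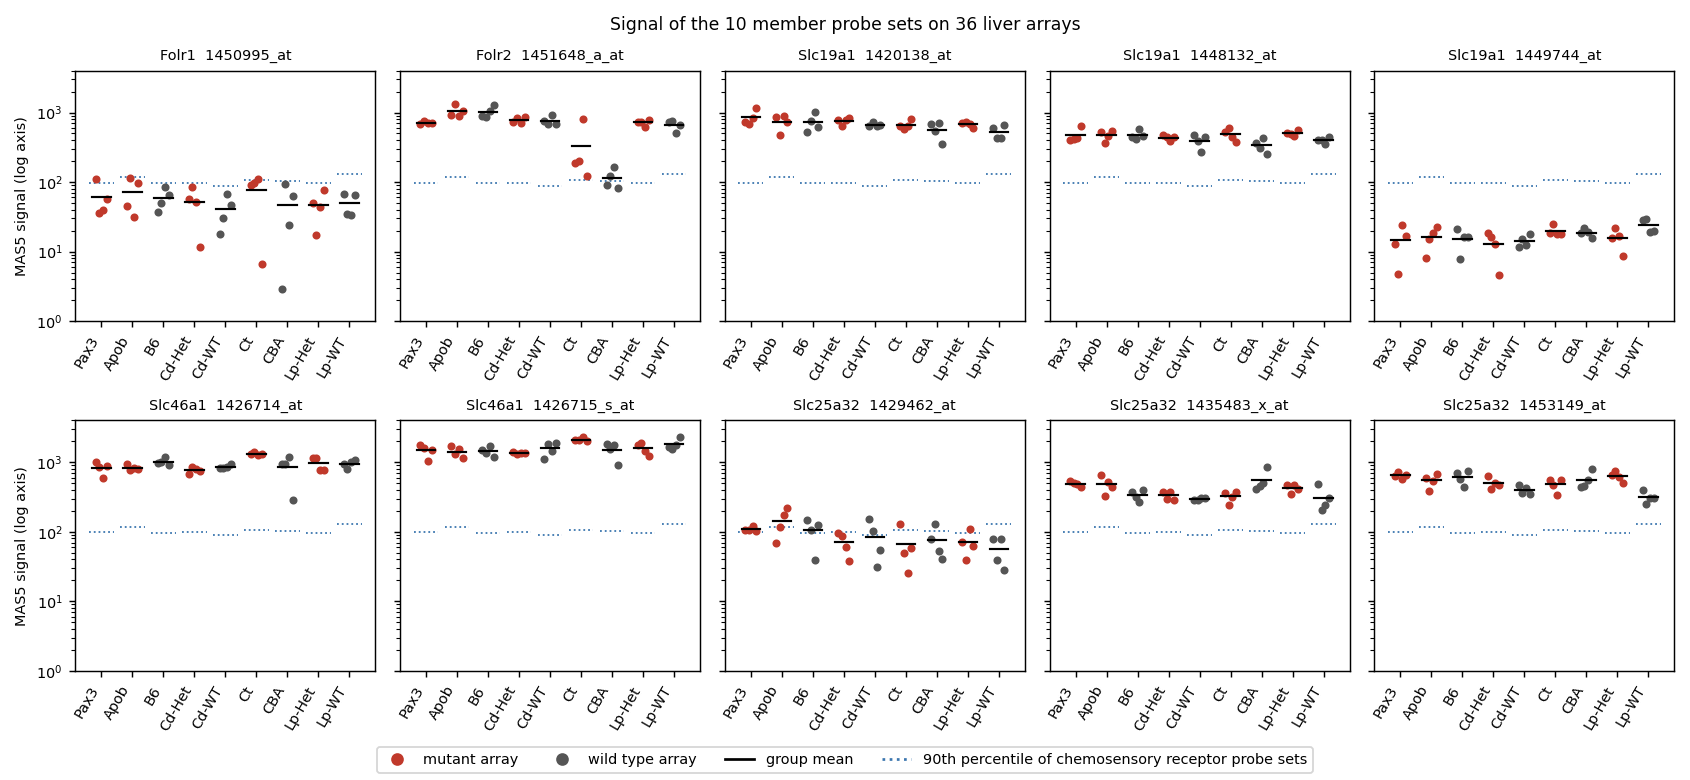
MAS5 signal (log axis) of the 10 probe sets on 36 arrays, by group, with each mutant group left of its control. Points are single mice (red mutant, grey wild type), black bars are group means, and dotted lines are the 90th percentile of 80 chemosensory receptor probe sets. Folr1 and the third Slc19a1 probe set lie below the dotted line in all 9 groups, and Folr2 is low in Ct and CBA.

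The receptor Folr1 was near background in every group. Its probe set 1450995_at had signals from 2.95 (CBA replicate 1) to 115 (Apob replicate 2), and its group means ran from 40.7 ± 21.4 in Cd-WT to 76.03 ± 47.2 in Ct (SD, n = 4 each). Values spread widely within groups, as in Ct, with 89.5, 97.2, 111 and 6.55. All 9 groups overlapped with their neighbours in the order of means. Folr1 did not pass the filter, and in a fit without the filter no comparison called it, with differences between mutants and controls from -0.10 to 0.52. The adjacent gene on chromosome 7, Folr2, was well above background in 7 of the 9 groups.

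Folr2, a folate receptor of macrophages, was the member that differed most between groups. It lies at chr7:101839988-101857190 on the reference assembly GRCm38.p6, between Inppl1 and Folr1. The probe set 1451648_a_at had signals of 511 to 1316 on the 28 arrays of the 7 groups other than Ct and CBA, with a median of 755. On the 8 arrays of Ct and CBA it had 82.8 to 204 on 7, and 811 on Ct replicate 3. Leaving out that array, no Ct or CBA liver reached the lowest value of the other groups.

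The sequence upstream of Folr2 is shown because its signal separated the stocks most. RefSeq gives 2 start regions for it on GRCm38.p6, each printed as a window of 300 bases that ends just past the start, on the minus strand, as in the C57BL/6J reference. The sequences of these regions in CBA/CaJ and ct mice were not analysed here. Capitals mark the letters GGAAGT, the core bound by Ets-type factors, searched on both strands and with no overlap with the other motifs searched.
Folr2 start region at chr7:101857141-101857440: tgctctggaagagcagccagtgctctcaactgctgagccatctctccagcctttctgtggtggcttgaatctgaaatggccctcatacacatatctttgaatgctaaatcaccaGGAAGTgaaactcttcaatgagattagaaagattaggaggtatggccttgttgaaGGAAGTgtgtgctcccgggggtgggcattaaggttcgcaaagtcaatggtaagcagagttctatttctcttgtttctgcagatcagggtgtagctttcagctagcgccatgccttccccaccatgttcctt
Folr2 start region at chr7:101845282-101845581: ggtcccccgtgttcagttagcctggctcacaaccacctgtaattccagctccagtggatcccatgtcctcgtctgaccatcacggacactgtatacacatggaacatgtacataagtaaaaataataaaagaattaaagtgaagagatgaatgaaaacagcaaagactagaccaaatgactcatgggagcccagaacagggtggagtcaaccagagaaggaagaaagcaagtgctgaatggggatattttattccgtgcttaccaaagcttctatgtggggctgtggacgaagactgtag
The first region held GGAAGT 2 times and the second 0 times, and 23.8% of 32851 mouse start regions of this length held it at least once. Neither region held a GC box, GGGCGG, present in 35.7% of the start regions, or a TATA box, TATAAA, present in 13.6%. Their GC contents were 47.7% and 45.3%, with 3 and 5 CpG dinucleotides, against medians of 52.7% and 7 over all start regions. The Slc19a1 start regions, by contrast, had 62.3% and 61.7% GC with 19 and 21 CpG dinucleotides, and that of Slc46a1 had 53% with 14. These matches describe the letters only and say nothing of binding.

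Between wild type groups, Folr2 was lower in CBA than in each of the other 3. Signals were 92.0, 124, 165 and 82.8 in CBA livers, against 884, 866, 1061 and 1285 in B6 livers. Cd-WT livers had 760.5, 679.9, 908 and 691, and Lp-WT livers 739.7, 750.1, 511 and 656. The highest CBA value was under the lowest value of every other wild type group, while the lowest value of the other 3 groups was 511, in Lp-WT. Group means were 116 ± 37.1 in CBA, 759.8 ± 105 in Cd-WT, 664 ± 111 in Lp-WT and 1024 ± 195 in B6 (SD, n = 4 each). The CBA mean exceeded the background gauge of its group, 103, only slightly, and 2 of the 4 CBA values were below it.

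Folr2 fell in CBA relative to B6 by 2.93 ± 0.29 on the log2 scale (adjusted p = 5.05e-09), a fold of 0.131. It was higher in Cd-WT than in CBA by 2.52 ± 0.29 (adjusted p = 1.48e-07). In CBA relative to Lp-WT it fell by 2.33 ± 0.29 (adjusted p = 8.93e-07). Without the 2 arrays of poor RNA quality the differences were -2.81, 2.40 and -2.21, all still called. It was the only member probe set of 8 called between CBA and B6, a comparison in which 6.29% of all probe sets were called. A test of any difference among the 4 wild type groups gave F = 42.2 (adjusted p = 4.94e-09). Each wild type group is 1 stock, so strain, colony and any handling of a group cannot be told apart. Folr2 was measured by a single probe set, and whether sequence variants of the stocks lie under its probes was not tested.

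Differences of Folr2 among the other 3 wild type groups were smaller. Lp-WT values were all below B6 values, with a difference of -0.61 ± 0.29 that was not called (adjusted p = 0.363). It was called without the 2 arrays of poor RNA quality, which belong to neither group but enter the pooled variance (adjusted p = 0.0303). Cd-WT overlapped with both B6 and Lp-WT, with differences of -0.41 ± 0.29 from B6 and 0.19 ± 0.29 from Lp-WT (adjusted p = 0.566 and 0.853).

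**Figure D2:**
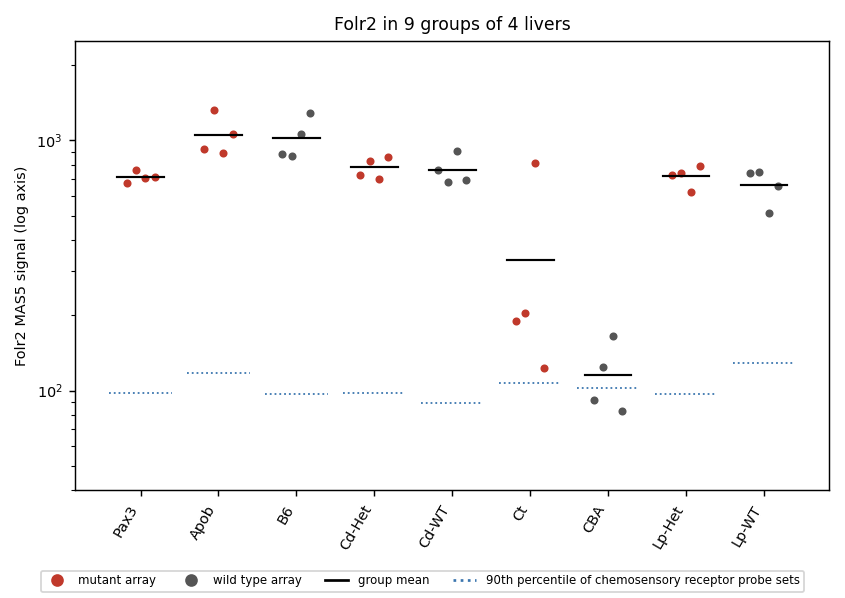
MAS5 signal of Folr2 (log axis) in the 4 livers of each group. Points are single mice (red mutant, grey wild type), bars are group means and dotted lines are the 90th percentile of 80 chemosensory receptor probe sets. CBA values are 82.8 to 165 and those of Ct are 123, 189, 204 and 811, while no array of the other groups is below 511.

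Among the mutants, Folr2 was higher in Ct than in CBA, in a comparison that rested on a single mouse. Ct livers had 189, 204, 811 and 123, against 92.0, 124, 165 and 82.8 in CBA livers. The groups overlapped, and the value of 811, from Ct replicate 3, was far above the other Ct livers. The difference was 1.03 ± 0.29 (adjusted p = 0.0333). It was 0.50 without Ct replicate 3 (adjusted p = 0.176) and 0.38 without both arrays of poor RNA quality (adjusted p = 0.416). Leaving out CBA replicate 1 or CBA replicate 4 also ended the call (adjusted p = 0.0611 and 0.106). Without both arrays the means were 172 ± 43.0 in Ct and 127 ± 36.6 in CBA (SD, n = 3 each).

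In the other lines Folr2 did not pass the test. Pax3 livers had 677, 762, 704 and 710.4, against 884, 866, 1061 and 1285 in B6 livers. All Pax3 values were below all B6 values, the difference was -0.49 ± 0.29, and it was not called (adjusted p = 0.999). Folr2 was 1 of 2 member probe sets whose Pax3 and B6 groups did not overlap, as was so for 5.21% of all probe sets. Apob livers, set against the same B6 livers, had 923, 1316, 893 and 1056 and overlapped with them throughout, with a difference of 0.03 ± 0.29. Cd-Het livers had 728, 828, 704 and 859, against 760.5, 679.9, 908 and 691 in Cd-WT livers. Lp-Het livers had 728, 741, 624 and 788, against 739.7, 750.1, 511 and 656 in Lp-WT livers. Both of these pairs overlapped, with differences of 0.04 ± 0.29 and 0.12 ± 0.29.

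The levels of Folr2 in order of group mean were Apob, B6, Cd-Het, Cd-WT, Lp-Het, Pax3, Lp-WT, Ct and CBA. Of the 8 neighbouring pairs in this order, 7 overlapped in their values. The exception was B6 and Cd-Het, and Lp-WT and Ct overlapped only through Ct replicate 3.

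Markers of Kupffer cells moved with Folr2 in several of these comparisons. Of 12 markers, all tested, 6 fell in CBA relative to B6 (Clec4f, Cd5l, Marco, C1qb, C1qc and Lyz2), with a median of -1.37, against -0.04 over all probe sets tested. Without the arrays of poor RNA quality 7 fell and the median was -0.69, where 1351 of 26974 probe sets were called. Folr2, at -2.93, lay beyond all 12 in that comparison, of which Marco, a scavenger receptor, was the lowest at -2.48. In Cd-WT relative to CBA 2 markers rose, Cd5l and Marco, with a median of 0.94, or 2 with a median of 0.48 without those arrays. In CBA relative to Lp-WT Marco was the 1 marker that fell, with a median of -0.69 over the list, whereas without those arrays 2 fell, Marco and Cd5l, with a median of -0.24. Marco lay beyond Folr2 in both of these last comparisons and was near background in CBA, where the other 11 markers were not.

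Between Lp-WT and B6, where Folr2 was called only without the 2 arrays, the markers leaned the same way. Their median was -0.56, against 0.03 over all probe sets tested, with 2 of 12 positive and 0 called, and 4 of 12 lay beyond Folr2. Without the 2 arrays 4 markers fell (Cd5l, Vsig4, C1qb and Csf1r). Calls over all probe sets rose there too, to 1262 of 26974 from 552 of 27022.

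The summed marker signal did not separate the groups as Folr2 did. It ran from 17202 to 23939 in CBA, 20743 to 27214 in Lp-WT, 27038 to 36063 in Cd-WT and 30576 to 43749 in B6. The summed ranges of CBA and Lp-WT overlapped, whereas their Folr2 ranges did not. The summed ranges of Lp-WT and B6 did not overlap, and neither did their Folr2 ranges. The sum is weighted to the brightest markers, and the mean log2 value of the 12 markers gave another picture. It was 9.06 to 10.26 in CBA and 10.28 to 10.65 in Lp-WT, narrowly apart. In Cd-WT it was 10.51 to 11.02 and in B6 10.67 to 11.15, so CBA was lowest by this measure too. In Ct relative to CBA 6 markers rose with a median of 1.27, and without the 2 arrays 0 rose and the median was 0.26. The part of cell numbers in the Folr2 differences was not tested. In bulk liver RNA, fewer cells of a type and less RNA per cell cannot be told apart.

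Markers of the other liver cells were called less often than those of Kupffer cells in the comparisons that called Folr2. Of 9 hepatocyte markers on the array, 0 were called in any comparison of a mutant with its control or between wild type groups. Among 8 markers of endothelial cells Lyve1 alone was called, lower in Cd-WT than in each of the other wild type groups. The endothelial median was -0.29 in CBA relative to B6 and 0.33 in Cd-WT relative to CBA. In CBA relative to Lp-WT it was -0.44, with 0 of 8 positive. Without the 2 arrays of poor RNA quality these medians were -0.04, 0.11 and -0.20. The last was near the Kupffer cell median of -0.24 in that setting. Among 8 of stellate cells Dcn and Rgs5 rose in Ct relative to CBA, and not without the 2 arrays of poor RNA quality, and Dcn rose in Cd-WT relative to CBA. Of 4 cholangiocyte markers tested 0 were called in these comparisons. Of the 5 on the array, Krt7, Sox9 and Cftr were near background in every group, so the absence of calls says little.

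**Figure D3:**
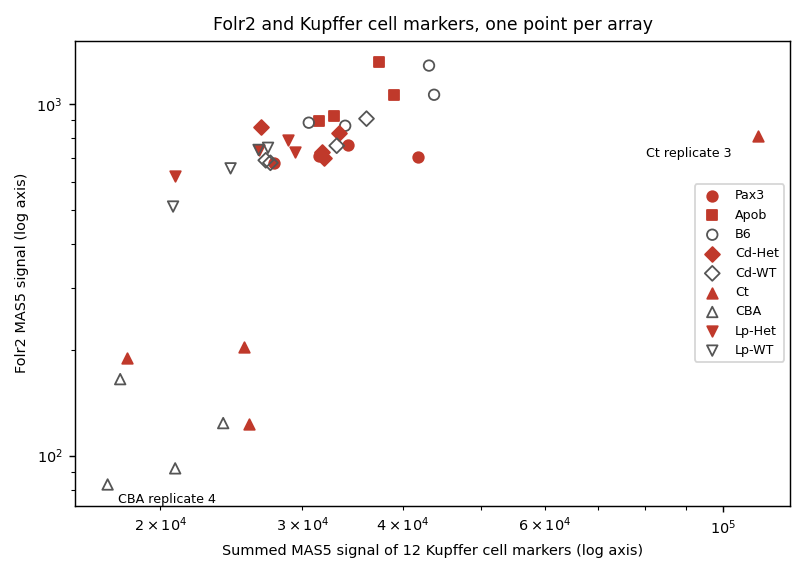
Folr2 MAS5 signal against the summed MAS5 signal of 12 Kupffer cell markers, both on log axes, with 1 point per array (filled red mutant, open grey wild type). CBA and Lp-WT share a range of summed marker signal, near 20743 to 23939, but lie apart in Folr2. The mean log2 value of the 12 markers, not drawn, did not overlap between them (at most 10.26 in CBA, at least 10.28 in Lp-WT). Ct replicate 3 is far to the right of the other Ct arrays.

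Genes whose pattern was most like that of Folr2 were found by the Pearson correlation of log2 values over the 34 arrays without the pair of poor RNA quality. They were Nlrp12 (r = 0.937), Ang (r = 0.936) and Rpgrip1 (r = 0.910), or 0.897, 0.896 and 0.806 over all 36 arrays. Nlrp12, at 1440921_at, averaged 46.2 in Ct and 46.8 in CBA, against 1139 to 3283 in the other groups. Ang, an RNase, averaged 2019 in Ct and 1628 in CBA, against 36333 to 59728 elsewhere. All 3 genes were thus low in the same pair of stocks. Nlrp12 lies on chromosome 7, as Folr2 does, but far from it, with starts at 3218643 and 101839988. Ang and Rpgrip1 lie on chromosome 14, with starts at 51091077 and 52104241. The arrays of a group share a stock, and the correlations are given as a description.

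Slc19a1, the reduced folate carrier, was not called in any comparison. Its probe sets 1420138_at and 1448132_at were above background everywhere, with group means of 529 to 857 and 340.1 to 502. The third, 1449744_at, was near background in every group, with means of 12.97 to 24.13, and did not pass the filter. The highest group mean was 1.62 times the lowest for 1420138_at and 1.48 times for 1448132_at, and for both every neighbouring pair in the order of means overlapped. The pair of bright probe sets followed each other loosely, with r = 0.444 and a rank correlation of 0.305 over 34 arrays.

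The largest differences of Slc19a1 between mutants and controls were in Ct and Lp-Het. At 1448132_at, Ct livers had 517, 593, 446 and 381, against 369, 313, 425 and 254 in CBA livers. Most Ct values were above the CBA values but the groups overlapped, and the difference was 0.49 ± 0.18 (adjusted p = 0.111), or 0.40 without the 2 arrays of poor RNA quality. Lp-Het livers had 507, 484, 460.2 and 558, against 397, 402, 354 and 451 in Lp-WT livers. Here every Lp-Het value was above every Lp-WT value, with a difference of 0.31 ± 0.18 that was not called (adjusted p = 0.814). At 1420138_at the same pairs differed by 0.27 ± 0.21 and 0.37 ± 0.21, both with overlapping groups. Pax3 replicate 4 had the highest value of its group at both probe sets, 1174 at 1420138_at and 637 at 1448132_at.

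Among wild type groups, 1448132_at was lower in CBA than in B6 by a difference of -0.47 ± 0.18 that was not called (adjusted p = 0.121), or -0.34 without the 2 arrays of poor RNA quality. The lowest mean of 1420138_at was that of Lp-WT, 529 ± 119, against 726 ± 216 in B6, a difference of -0.42 ± 0.21 (adjusted p = 0.418). The tests of any difference among wild type groups gave adjusted p = 0.374 for 1420138_at and 0.286 for 1448132_at.

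Slc46a1, the proton-coupled folate transporter, was highest in Ct livers at both of its probe sets. At 1426714_at, Ct livers had 1323, 1411, 1251 and 1332, against 958, 946, 1179.5 and 282 in CBA livers. The groups did not overlap, and CBA replicate 4 was far below the other CBA livers. The difference was 0.81 ± 0.25 (adjusted p = 0.0493), so the transporter rose in Ct by this test, close to its threshold. Without CBA replicate 4 it was 0.37 (adjusted p = 0.244), and without both arrays of poor RNA quality 0.40 (adjusted p = 0.313). Leaving out any 1 of the 4 Ct arrays also ended the call, with adjusted p between 0.056 and 0.104. Folr2 and this probe set were the 2 of 8 member probe sets called between Ct and CBA, where 4.52% of all probe sets were called.

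The other probe set of Slc46a1, 1426715_s_at, gave the same order without a call. Ct livers had 2069.7, 2074, 2295 and 2017, against 1836, 1526, 1773 and 925 in CBA livers. Again the groups did not overlap, and the difference was 0.52 ± 0.20 (adjusted p = 0.120), or 0.26 without the 2 arrays. Group means over the 9 groups ran from 774 ± 78.4 in Cd-Het to 1329 ± 65.4 in Ct at 1426714_at, and from 1349 ± 30.4 in Cd-Het to 2114 ± 123 in Ct at 1426715_s_at. The Ct values of 1426714_at lay above all values of the next group in order, B6, and the other 7 neighbouring pairs overlapped. The probe sets followed each other over 34 arrays with r = 0.767 and a rank correlation of 0.760.

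In the remaining lines Slc46a1 differed from its controls by -0.31 to 0.02 and no value was called. Pax3 and Apob livers had means of 829.8 ± 175 and 828 ± 69.5 at 1426714_at, against 1019.8 ± 127 in the B6 livers they share (SD, n = 4 each). The differences were -0.31 ± 0.25 and -0.29 ± 0.25 at that probe set, but 0.02 ± 0.20 and -0.03 ± 0.20 at 1426715_s_at. Among wild type groups neither probe set was called, and the tests of any difference gave adjusted p = 0.548 and 0.570.

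Slc25a32, the carrier that brings folate into mitochondria, had its lowest group mean in Lp-WT livers at its brightest probe set, 1453149_at. Lp-WT livers had 400.5, 247, 304 and 305, against 692, 570.1, 445 and 743 in B6 livers. All Lp-WT values lay below all B6 values. This probe set fell in Lp-WT relative to B6 by 0.91 ± 0.20 on the log2 scale (adjusted p = 0.00926), a call that held under all 21 alternatives tried. It was the only member probe set called in this comparison, in which 2.04% of all probe sets were called. The other probe sets of the gene had overlapping groups and were not called. Their differences were -0.16 ± 0.22 at 1435483_x_at (adjusted p = 0.848) and -0.65 ± 0.38 at 1429462_at (adjusted p = 0.523).

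Lp-WT was not separated from Cd-WT, which overlapped with it, with a difference of 0.34 ± 0.20 between Cd-WT and Lp-WT that was not called (adjusted p = 0.497).

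The other calls of Slc25a32 between 2 wild type groups involved CBA. At 1453149_at, CBA livers had 444, 459, 559.5 and 793, and all lay above the Lp-WT values. The difference between CBA and Lp-WT was 0.78 ± 0.20 (adjusted p = 0.0236). At the second probe set, 1435483_x_at, CBA livers had 411, 449, 499.5 and 859.6, against 481, 208, 242 and 310.2 in Lp-WT livers. These groups overlapped through Lp-WT replicate 1, with a difference of 0.80 ± 0.22 (adjusted p = 0.0360). With Folr2, this made 3 of 8 member probe sets called between CBA and Lp-WT, where 3.21% of all probe sets were called.

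CBA replicate 4, the array of the highest GAPDH ratio, had the highest Slc25a32 value of its group at both of these probe sets. Without it the differences between CBA and Lp-WT were 0.61 at 1453149_at (adjusted p = 0.118) and 0.58 at 1435483_x_at (adjusted p = 0.194). Both were also lost on leaving out Lp-WT replicate 2, 3 or 4, with adjusted p between 0.0613 and 0.161. Cd-WT livers had 289, 289, 305 and 301 at 1435483_x_at, all below the CBA values, with a difference from CBA of -0.80 ± 0.22 (adjusted p = 0.0279). This call too was lost without CBA replicate 4 (-0.57, adjusted p = 0.142) and on leaving out any 1 Cd-WT array (adjusted p between 0.0582 and 0.071). It was 1 of 2 member probe sets called between Cd-WT and CBA, with Folr2, where 4.64% of all probe sets were called.

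The probe sets of Slc25a32 did not always agree. Between CBA and B6 the difference was 0.64 ± 0.22 at 1435483_x_at (adjusted p = 0.0767), or 0.42 without the 2 arrays of poor RNA quality, but -0.13 ± 0.20 at 1453149_at (adjusted p = 0.768). Over 34 arrays these probe sets followed each other with r = 0.643 and a rank correlation of 0.583. The suffix of 1435483_x_at marks probes that may also match other transcripts. The third probe set, 1429462_at, had group means of 56.6 to 144 and was near background in 6 of 9 groups, all except Pax3, Apob and B6. It was not called in any comparison.

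Over the 8 member probe sets, the test of any difference among the 4 wild type groups called 3: Folr2 and the 2 brighter probe sets of Slc25a32, against 9.65% of all probe sets. For Slc25a32 it gave adjusted p = 0.00610 at 1453149_at and 0.0299 at 1435483_x_at, the second lost without CBA replicate 4 (adjusted p = 0.180). Between Cd-WT and B6 and between Cd-WT and Lp-WT 0 of 8 were called by limma, against 3.82% and 2.44% of all probe sets, and 1 and 0 had an unadjusted p below 0.05, against 14.9% and 13.2%. That 1 was 1453149_at, with -0.56 ± 0.20 between Cd-WT and B6 (adjusted p = 0.133), called without the 2 arrays of poor RNA quality (adjusted p = 0.0428).

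In the mutant lines, the largest difference of Slc25a32 was in loop tail heterozygotes. At 1453149_at, Lp-Het livers had 654, 759, 619 and 506, against 400.5, 247, 304 and 305 in Lp-WT livers. The lowest Lp-Het value was above the highest Lp-WT value. The difference was 0.97 ± 0.20, a fold of 1.96, and it was not called (adjusted p = 0.0694). It was called without the 2 arrays of poor RNA quality, which belong to other groups (adjusted p = 0.0120). Lp-Het averaged 634 ± 104 and Lp-WT 314 ± 63.7, the lowest mean of the 9 groups, while the other 7 groups averaged 402 to 647.

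The other probe sets of Slc25a32 in this line were less apart. At 1435483_x_at, Lp-Het livers had 475, 354, 468 and 417, against 481, 208, 242 and 310.2 in Lp-WT livers. The groups overlapped, with a difference of 0.49 ± 0.22 (adjusted p = 0.723). At 1429462_at, near background in both groups, the difference was 0.24 ± 0.38.

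**Figure D4:**
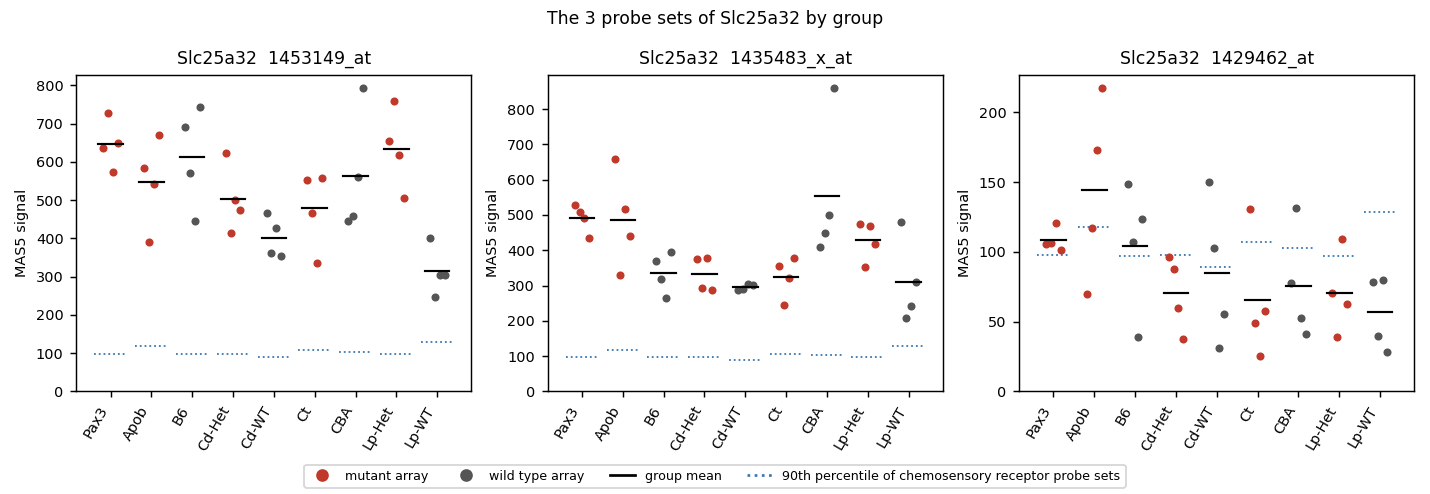
MAS5 signal (linear axis from 0) of the 3 probe sets of Slc25a32 in the 4 livers of each group. Points are single mice (red mutant, grey wild type), bars are group means and dotted lines are the 90th percentile of 80 chemosensory receptor probe sets. At 1453149_at the Lp-Het values, 506 to 759, are all above the Lp-WT values, 247 to 400.5, and CBA replicate 4 is the highest CBA value at 1453149_at and 1435483_x_at.

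Pax3 livers had 529, 509, 492 and 433 at 1435483_x_at, against 368, 318, 264 and 396 in B6 livers. These groups did not overlap either, with a difference of 0.53 ± 0.22 that was not called (adjusted p = 0.973). At 1453149_at the same comparison gave 0.10 ± 0.20 with overlapping groups. Apob livers, against the same B6 livers, differed by 0.48 ± 0.22 at 1435483_x_at (adjusted p = 0.375) and by -0.16 ± 0.20 at 1453149_at. Cd-Het livers differed from Cd-WT livers by 0.15 ± 0.22 and 0.30 ± 0.20.

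In Ct relative to CBA, Slc25a32 pointed the other way. Ct livers had 355, 245, 321 and 377 at 1435483_x_at, against 411, 449, 499.5 and 859.6 in CBA livers. The groups did not overlap, with a difference of -0.69 ± 0.22 that was not called (adjusted p = 0.0632), or -0.47 without the 2 arrays of poor RNA quality. It was called on leaving out CBA replicate 1 or CBA replicate 2 (adjusted p = 0.0360 and 0.0442), and under a stricter filter (0.0454). At 1453149_at the difference was -0.22 ± 0.20, and it turned to 0.11 without these arrays.

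Line by line, member probe sets called against the line's own control were 2 of 8 in Ct and 0 of 8 in each of Pax3, Cd-Het, Apob and Lp-Het by limma's test. The shares of all probe sets called were 4.52% in Ct, 0.00% in Pax3, 0.00370% in Cd-Het, 0.796% in Apob and 0.0222% in Lp-Het. At an unadjusted p below 0.05 the members numbered 5 in Ct, 1 in Pax3, 0 in Cd-Het, 1 in Apob and 2 in Lp-Het, against 21.0%, 4.85%, 2.42%, 12.1% and 6.40% of all probe sets. Apart from Ct, differences of the 8 ran from -0.49 to 0.53 in Pax3, -0.19 to 0.30 in Cd-Het, -0.29 to 0.48 in Apob and -0.19 to 0.97 in Lp-Het. Non-overlapping groups numbered 3 in Ct, 2 in Pax3, 2 in Lp-Het and 0 in Cd-Het and Apob, against 6.19%, 5.21%, 5.10%, 3.02% and 9.86% of all probe sets. A missed threshold does not show that levels were equal: the 95% interval of the Folr2 difference in Cd-Het, for example, ran from -0.54 to 0.63.

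**Figure D5:**
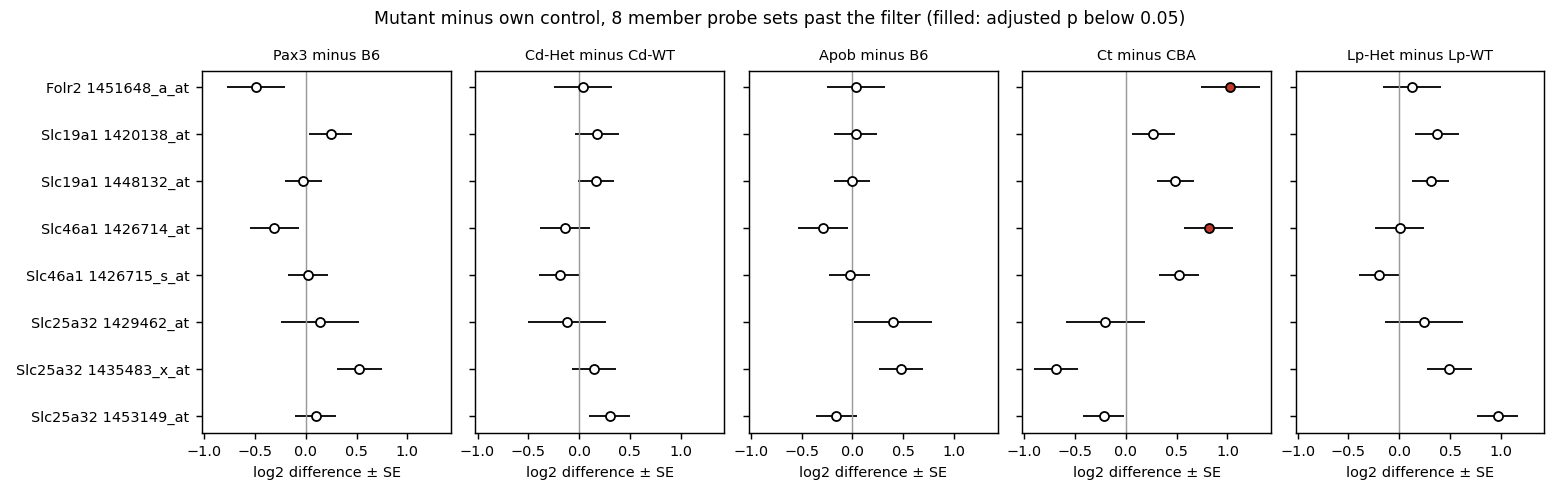
Log2 difference ± SE of each mutant group from its own control for the 8 probe sets past the filter, from the limma fit over 36 arrays. Filled points have an adjusted p below 0.05: only Folr2 (1.03) and Slc46a1 1426714_at (0.81) in Ct minus CBA, both lost without CBA replicate 4. The open point farthest to the right is Slc25a32 1453149_at in Lp-Het minus Lp-WT, at 0.97.

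Since the labels class the lines by response to dietary folic acid, the members were compared on that axis as well. The mean effect of the responsive lines (Pax3 and Cd-Het) minus that of the resistant lines (Apob, Ct and Lp-Het) was called for 0 of 8 member probe sets, against 0.0851% of all probe sets. Folr2 alone had an unadjusted p below 0.05, as did 10.4% of all probe sets, with -0.62 ± 0.23 (adjusted p = 0.332), or -0.40 without the 2 arrays of poor RNA quality. Its effects were -0.49 and 0.04 in the responsive lines and 0.03, 1.03 and 0.12 in the resistant lines, so that Pax3 and Ct supplied most of the contrast. Slc46a1 had -0.40 ± 0.20 at 1426714_at (adjusted p = 0.488), and the other member probe sets lay between -0.19 and 0.24. A test of any difference among the 5 effects called 0 of 8, against 2.29% of all probe sets, with 4 at an unadjusted p below 0.05, against 16.3%. The lowest adjusted p was 0.0597, for Slc25a32 at 1453149_at.

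Other proteins that move folates or belong to the same carrier families were followed as 18 further genes, of which 14 were tested, each by its brightest probe set. In mutants, Slco1a4, an organic anion transporter, fell in Apob by 1.64 ± 0.39 (adjusted p = 0.0365), a call lost in 7 of 21 alternatives, among them leaving out B6 replicate 1, 2 or 3 or Apob replicate 2 or 3 (highest adjusted p = 0.183). Slc25a33, a mitochondrial carrier of pyrimidine nucleotides, rose in Ct by 0.96 ± 0.22 (adjusted p = 0.00902), but not without the 2 arrays of poor RNA quality (adjusted p = 0.133). The other lines had 0 called. A test of any difference among the 5 effects called 3 of 14, against 2.29% of all probe sets. They were Slco1a1, Slco1a4 and Slc25a33 (adjusted p = 0.0277, 0.0371 and 0.0481), the last lost without the 2 arrays (adjusted p = 0.115). Slco1a1 differed by -2.53 in Pax3 and 1.27 in Apob, neither called (adjusted p = 0.756 and 0.516). The list's median difference was 0.04 in Apob, against 0.03 over all probe sets tested. In Ct it was -0.20, against -0.02 over all, with 4 of 14 positive, or -0.05 without the 2 arrays.

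Between wild type groups, Slco1a1, an organic anion transporter of the hepatocyte, fell in Cd-WT relative to B6 by 3.68 ± 0.74 (adjusted p = 0.00156) and fell by 5.72 ± 0.74 relative to CBA (adjusted p = 1.61e-06). Without the 2 arrays of poor RNA quality the difference from CBA was -5.56. The efflux pumps Abcc2 and Abcg2 fell in Cd-WT relative to B6, with differences of -0.99 and -0.69 (adjusted p = 0.0343 and 0.0241). These calls were lost in 7 of 20 and 6 of 21 alternatives, including leaving out B6 replicate 1 or Cd-WT replicate 1, 3 or 4, with adjusted p up to 0.135 and 0.108. Slc46a3, a lysosomal relative of Slc46a1, rose in CBA relative to B6 by 1.00 ± 0.22 (adjusted p = 0.00425) and relative to Lp-WT by 1.29 ± 0.22 (adjusted p = 3.17e-04). Without the 2 arrays these differences were 0.88 and 1.17, both still called. Slc25a33 fell in CBA relative to B6 by 0.80 ± 0.22 (adjusted p = 0.0240). Without the 2 arrays its difference was -0.66 and was not called (adjusted p = 0.0862). In all, 2 of 14 were called in CBA relative to B6 (6.29% of all probe sets), 3 in Cd-WT relative to B6 (3.82%), 3 in Cd-WT relative to CBA (4.64%), 2 in CBA relative to Lp-WT (3.21%) and 0 in Lp-WT relative to B6 (2.04%) and in Cd-WT relative to Lp-WT (2.44%). Without the 2 arrays the counts were 1, 4, 4, 2, 0 and 1. In that setting 1351, 1873, 1232, 743, 1262 and 1331 of 26974 probe sets were called in these comparisons.

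Enzymes that retain folate or use it numbered 24 on the array, of 27 listed, and 23 were tested. In Ct relative to CBA, Mthfd1l, which makes formate in mitochondria, fell by 1.03 ± 0.30 (adjusted p = 0.0383). Gnmt, a methyltransferase that binds folate, rose there by 0.59 ± 0.16 (adjusted p = 0.0303). Neither was called without the 2 arrays of poor RNA quality (adjusted p = 0.306 and 0.203). In Pax3, Cd-Het, Apob and Lp-Het 0 of 23 were called. The list's median difference was -0.0015 in Ct, against -0.02 over all probe sets tested.

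Between wild type groups, Ggh, which trims the glutamate tail that keeps folate inside cells, rose in CBA relative to B6 by 1.18 ± 0.24 (adjusted p = 0.00169). It stayed called without the 2 arrays (0.89, adjusted p = 0.0105). Atic, of purine synthesis, fell in CBA relative to B6 by 0.73 ± 0.20 (adjusted p = 0.0221), but not without them (adjusted p = 0.0968). In Cd-WT relative to CBA, Ftcd, which links histidine breakdown to folate, and Atic rose by 0.63 and 0.72 and Mthfsd fell by 0.71, and of these Mthfsd alone stayed called without the 2 arrays (adjusted p = 0.0329). Counts were 2 of 23 in CBA relative to B6 (6.29% of all probe sets), 3 in Cd-WT relative to CBA (4.64%) and 1 in CBA relative to Lp-WT (3.21%). Without the 2 arrays they were 2 in each, where 1351, 1232 and 743 of 26974 probe sets were called. They were 0 in Cd-WT relative to B6 (3.82%), in Lp-WT relative to B6 (2.04%) and in Cd-WT relative to Lp-WT (2.44%), but 3, 2 and 1 without the 2 arrays. Calls over all probe sets rose as well in these last comparisons, to 1873, 1262 and 1331 of 26974, from 1031, 552 and 659 of 27022.

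For the remaining members the genes of most similar pattern over 34 arrays were less close than those of Folr2. For Slc19a1 at 1420138_at they were Usp2, a deubiquitinase (r = 0.770), Hexa (0.707) and Marchf5 (0.685), but over all 36 arrays Usp2 and Marchf5 had 0.451 and 0.343. For Slc46a1 at 1426715_s_at they were Ubxn1 (0.765), Pank1 (0.731) and Sumf1 (0.726), with 0.809, 0.541 and 0.265 over all 36. For Slc25a32 at 1453149_at they were Hspa14 (0.768), 1810055G02Rik (0.735) and Ndufaf4 (0.701), with 0.744, 0.709 and 0.728 over all 36. These 3 genes were all lowest in Lp-WT, as was the Slc25a32 probe set for whose pattern they were chosen. Hspa14 had a mean of 410 there, against 503 to 654 in the other groups, and 1810055G02Rik 919, against 1333 to 2661. Ndufaf4, an assembly factor of mitochondrial complex I, had 1337, against 1807 to 2653.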

How the data were processed

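The deposited table held MAS5 signal intensities of 45101 probe sets, 64 of them array controls, which the authors made with MAS5, per the submitters' processing notes. Its version, the detection calls and the scanner files are not given in the sources used here. Each deposited column had a trimmed mean of 500 with 2% left out at each end. Signals were not scaled further: values are log2 of signal plus 23.068, the 20th percentile. Tests covered probe sets whose mean exceeded 6.4057 on this scale (a signal of 61.717), the 40th percentile of means. Genes were taken from the platform's probe table, with current symbols, positions and start regions from RefSeq (GRCm38.p6), which matched 34741 of 34945 probe sets of 1 symbol. Start regions were found for 3 of 5 members.

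One mean per group was fitted to 36 arrays with limma 3.58.1 (R 4.3.3), with a variance trend, two-sided tests and Benjamini-Hochberg adjustment within a comparison. On simulated data for Ct minus CBA, 46% of probe sets changed 2-fold and 92% of those changed 4-fold were called, with 8 false calls among 27060. The simulated noise was independent and of equal spread on every array, with no outlying array. These shares may therefore not hold for the measured Ct and CBA arrays. Replicates are separate mice per the labels, and the number of arrays limits the precision. The members, lists, comparisons and alternatives were chosen with earlier results of these data known, and the motifs after the sequences were seen. Named genes were the members, the 3 genes most like each in pattern, and the called genes of 2 folate lists and of the cell type markers.

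Same-numbered mice were not paired: of 20 mutant and control pairs 4 correlated above 0.1 in their deviations from the group means, over a range of -0.20 to 0.32. Python 3.11.15 with matplotlib 3.10.9 made the figures.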

Additional observations from a re-analysis of the deposited data

Results flagged for a closer look

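Each value of 1 liver was compared with the other 3 of its group in 90 groups (10 probe sets by 9 groups of mice), and 4 stood farther from the rest than Dixon's 95% limit, where chance gives about 1 in 20. At Slc46a1 1426714_at, CBA replicate 4 had 282, against 946 to 1179.5 in the other CBA livers. This array had the GAPDH ratio of 52.5. At Slc19a1 1448132_at, Pax3 replicate 4 had 637, against 404 to 429.6 in the other Pax3 livers. A further pair of values came from probe sets near background. Folr1 had 6.55 in Ct replicate 4, against 89.5 to 111 in the other Ct livers, and Slc19a1 1449744_at had 25.1 in Ct replicate 2, against 17.7 to 18.4.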

How the results depend on the processing

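In Pax3, Cd-Het, Apob, Cd-WT minus Lp-WT and the contrast of responsive with resistant lines, no member probe set was called under any alternative. Not every alternative tested the same 8, since filters and the choice of probe sets differed. The count for Ct minus CBA, 2 in the main analysis, was 1 under quantile normalization, median centring, a lower offset, no filter, no variance trend and 1 probe set a gene. It was 3 under a stricter filter, where Slc25a32 at 1435483_x_at was called as well, and 2 under a higher offset. It was 0 with array weights, without shared probe sets (those marked _s_at, _x_at or _a_at), in a fit of the compared arrays alone and without CBA replicate 4 and Ct replicate 3. For Lp-Het minus Lp-WT it was 1 in place of 0 under a stricter filter, with array weights and without these 2 arrays, and for differences among the 5 mutant effects it was 1 in place of 0 under the same settings. For Cd-WT minus B6 it was 1 in place of 0 with array weights and without the 2 arrays, and for Lp-WT minus B6 it was 2 in place of 1 without the 2 arrays. For Cd-WT minus CBA, 2 became 1 under median centring, 1 probe set a gene, the compared arrays alone and without the 2 arrays, and 0 without shared probe sets. For CBA minus Lp-WT, 3 became 1 without shared probe sets, with the compared arrays alone and without the 2 arrays. Without shared probe sets, CBA minus B6 went to 0 and the test among wild type groups to 1. The Folr2 probe set (_a_at) and 1435483_x_at are then left out by construction. Their absence also lowers the counts of Cd-WT minus CBA and CBA minus Lp-WT in that setting. In Ct minus CBA that setting removes Folr2, while Slc46a1 at 1426714_at was tested and not called. With 1 probe set a gene only the brightest is kept, so 1426714_at and 1435483_x_at were not tested. The lower counts of Ct minus CBA and Cd-WT minus CBA there do not by themselves show a lost call.

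Leaving out 1 array at a time gave counts of 0 to 3 for Ct minus CBA, 1 to 2 for CBA minus B6, 1 for Lp-WT minus B6, 1 to 2 for Cd-WT minus CBA, 1 to 3 for CBA minus Lp-WT, 2 to 3 among wild type groups and 0 to 2 among mutant effects, and 0 for the other comparisons. The Slc25a32 difference at 1453149_at in Ct minus CBA, -0.22, ran from -0.31 to -0.05 on leaving out single arrays, and was reversed to 0.069 with array weights and to 0.11 without the 2 arrays, and the cause was not tested. The replicate block changed none of the member counts, with 2 still called in Ct minus CBA, but there Slc46a1 at 1426714_at was lost (adjusted p = 0.055) and Slc25a32 at 1435483_x_at was gained (adjusted p = 0.0478).

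Counts over all probe sets moved more. Without the 2 arrays they were 454 in place of 1221 for Ct minus CBA, 776 in place of 215 for Apob, 43 in place of 6 for Lp-Het and 1262 in place of 552 for Lp-WT minus B6. With array weights they were 17 in place of 0 for Pax3, 1508 for Apob and 2835 in place of 1701 for CBA minus B6. Signals near background limit Folr1, the probe set 1449744_at of Slc19a1 and Folr2 in CBA.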
